A study of Mus musculus with 18 samples.

Results

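The far 3′ flank of the mouse immunoglobulin heavy chain locus (Igh) was defined by position alone, as the 500 kb that lie 0.5 to 1 Mb from a bait in the Eμ enhancer on the side of the constant region genes (chr12:112426025-112926024, mm10). It held 1386 of the 56916 fragment ends of chromosome 12 that had a read in at least 1 of 18 libraries. Contacts of the bait were measured by 4C-seq, which counts the restriction fragment ends ligated to 1 chosen site after the chromatin has been fixed. The study asked whether Med1, a subunit of the Mediator complex, affects long-range contacts of Igh in B cells on their way to class switching. All cells were CD43-negative splenic B cells. Read counts came from 3 Med1 mutant libraries after 2 days with LPS and IL4, 3 resting Med1 mutant libraries, 3 WT libraries after 2 days with LPS and IL4, and 3 resting WT libraries. A separate deposit listed the covered ends, without counts, of 3 Med1 mutant and 3 WT libraries after 2 days with LPS alone. The labels do not describe the Med1 mutant allele, how or in which cells it was deleted, or the age and number of animals, and the loss of Med1 cannot be checked from contact counts. The titles of the WT libraries in the counted deposit read WTKO while their genotype label reads WT. The growth protocol of WT LPS + IL4 replicate 2 names an antibody to CD40 with IL4 in place of LPS with IL4, so the WT calls were also made without it. The labels do not say whether replicates came from separate animals, so the p-values measure only the spread between these libraries, which may be technical.

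The 12 counted libraries held 2470497 to 21074434 reads, of which 36532 to 293743 lay in the flank. Mutant LPS + IL4 replicate 2 stood apart in depth, since no other library exceeded 6026550 reads, and it covered 617 flank ends against 365 to 480 in the other 11 counted libraries. At 88 ends within 500 kb of the bait the counted libraries fell into 2 sets. Every group had libraries in both sets, but the sets were not balanced between the genotypes. The search took only splits that kept both conditions of 1 genotype and replicate number together. Mutant replicates 2 and 3 and WT replicate 3 of both conditions lay on one side. Such an end needed at least 50 reads in at least 5 libraries of 1 set and fewer than 50 in each library of the other. A separate search of the flank for the same split found 0 ends with this pattern and 0 with the reverse. How many flank ends were read deeply enough to qualify was not counted, so this does not show that the sets were alike there. Levels are given as CPM, reads per 1000000 reads on chromosome 12 farther than 5 kb from the bait. These are shares of a library, so fewer contacts in the flank and more contacts elsewhere cannot be told apart. The files record no molecular identifiers, so reads at 1 end are not independent molecules.

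Igh sits near the end of chromosome 12, with its variable genes on one side of Eμ and its constant region genes, the 3′ regulatory region and then a stretch of unrelated, gene-dense chromatin on the other. During class switching, transcription and looping bring Eμ, switch regions and the 3′ regulatory region together, and contacts generally become rarer with distance along the chromosome. The flank lies beyond the 3′ regulatory region, so its genes are neighbours of Igh on the chromosome and are not parts of the antibody locus.

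A fragment end in these data is a 24-base interval beside a GATC, the site of the first enzyme, DpnII. Promoters were taken from RefSeq (GRCm38.p6, which has the coordinates of mm10) as 250 bases before to 50 after each listed start. Of the 16 protein-coding genes that overlap the flank, 14 matched 17 promoter windows, and 7 windows of 6 genes held GATC, against 48.0% of all 32851 RefSeq promoter windows. All 269 ends of chromosome 12 that fell wholly inside a promoter window bordered a GATC there. The 3 promoters printed here are those that touch the most read end of the flank (Gpr132) or hold an end with reads in most libraries (Gm52009 and Akt1). Capitals mark the GATC with its 24-base end or, for Gpr132, the 2 bases of the end that reach into the window, and each is written 5′ to 3′ on the strand of its gene.
Gpr132, chr12:112860867-112861166, minus strand: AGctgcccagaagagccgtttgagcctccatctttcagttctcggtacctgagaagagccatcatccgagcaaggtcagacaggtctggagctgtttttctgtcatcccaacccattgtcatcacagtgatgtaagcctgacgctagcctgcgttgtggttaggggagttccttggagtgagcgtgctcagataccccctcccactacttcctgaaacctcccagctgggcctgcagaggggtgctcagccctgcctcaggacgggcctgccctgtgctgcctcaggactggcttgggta
Gm52009, chr12:112828451-112828750, plus strand: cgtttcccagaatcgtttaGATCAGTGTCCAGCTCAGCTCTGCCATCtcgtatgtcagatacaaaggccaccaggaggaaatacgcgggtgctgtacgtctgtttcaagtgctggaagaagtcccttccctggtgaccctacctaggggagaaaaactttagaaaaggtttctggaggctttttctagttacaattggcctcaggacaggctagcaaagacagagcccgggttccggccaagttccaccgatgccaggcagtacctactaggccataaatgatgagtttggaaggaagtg
Akt1, chr12:112674227-112674526, minus strand: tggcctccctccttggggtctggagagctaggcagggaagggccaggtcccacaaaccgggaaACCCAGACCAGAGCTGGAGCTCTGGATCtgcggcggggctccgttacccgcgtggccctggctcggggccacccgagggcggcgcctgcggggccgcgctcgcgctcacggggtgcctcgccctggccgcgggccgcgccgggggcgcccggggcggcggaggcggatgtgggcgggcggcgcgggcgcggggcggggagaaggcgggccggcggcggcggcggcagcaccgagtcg
The end touched by the Gpr132 window lies 261 bases before the listed start, at chr12:112861165-112861188. That start lies inside the RefSeq gene body (chr12:112850873-112868416) and not at its 5′ edge. The end inside the Gm52009 promoter had reads in 11 of the 12 counted libraries, with a mean of 323 CPM, and was covered in 6 of 6 LPS libraries. The end inside the Akt1 promoter was found as often, in 11 counted and 6 LPS libraries, but with a mean of 45.7 CPM. That Akt1 end had 44.1, 19.6 and 42.8 CPM in mutant LPS + IL4 cells, 68.9, 0 and 52.4 CPM in resting mutant cells, 27.5, 41.8 and 47.3 CPM in WT LPS + IL4 cells and 11.5, 120 and 72.4 CPM in resting WT cells. Its levels overlapped between activated and resting cells of both genotypes. The ends inside the promoters of Cep170b, Pld4, Ahnak2 and Cdca4 had reads in at most 6 of the 12 counted libraries. Their mean levels were 24.5 and 2.66 CPM for Cep170b and 0.192 CPM for Pld4. They were 2.00 and 0.867 CPM for Ahnak2 and 0.00818 and 0.493 CPM for Cdca4.

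The flank took a smaller share of the chromosome 12 reads after 2 days with LPS and IL4 than in resting cells of the same genotype. In Med1 mutant cells it held 2.78%, 2.88% and 2.76% of the chromosome 12 reads after activation (2.81% ± 0.066, SD, n = 3), against 3.60%, 3.50% and 3.97% in resting cells (3.69% ± 0.248, SD, n = 3). In WT cells it held 2.64%, 2.84% and 2.32% after activation (2.60% ± 0.264, SD, n = 3), against 3.44%, 3.97% and 3.82% in resting cells (3.74% ± 0.276, SD, n = 3). Activated and resting libraries did not overlap in either genotype. Averaged over the 12 libraries the flank held 3.21% of the reads, rank 5 of the 235 windows of 500 kb laid out along chromosome 12 from the bait. Counted without scaling, the mean number of covered flank ends was not lower after activation, at 484 against 398 in mutant and 448 against 434 in WT cells. Single libraries overlapped in both genotypes. Mutant libraries covered 365, 617 (the deepest library) and 470 flank ends after activation, against 391, 378 and 425 when resting. WT libraries covered 466, 452 and 426, against 404, 417 and 480. Activated libraries covered more ends of the whole chromosome.

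An edgeR quasi-likelihood fit over all 235 windows, adjusted by Benjamini-Hochberg, gave a log2 change of -0.39 ± 0.10 (SE) with activation in mutant cells (adjusted p = 0.0065) and of -0.52 ± 0.10 in WT cells (adjusted p = 0.000856). Of the 235 windows, 8.09% were called in mutant cells (6 higher, 13 lower) and 11.1% in WT cells (15 higher, 11 lower). Among the 20 windows whose distance from the bait was at most 5 Mb, the flank was the 1 window called lower in each genotype, while 4 in mutant and 7 in WT cells were called higher. The decrease was not particular to the flank. On the constant region side, the stretch 250 to 500 kb from the bait had 53.1 against 73.2 CPM per listed end in activated and resting mutant cells. In WT cells it had 52.1 against 80.7 CPM. That stretch was not counted apart, because its 500 kb window also held the constant region genes. The exact permutation test over libraries within genotype (two-sided) gave a mean log2 difference in the share of -0.46 with p = 0.005, the smallest this design allows, and 0.0125 after Benjamini-Hochberg adjustment over the 5 exact tests made. Without WT LPS + IL4 replicate 2 the WT change was -0.59 (adjusted p = 0.00274), and without mutant LPS + IL4 replicate 2 the mutant change was -0.41 (adjusted p = 0.0256). With the 2 library sets as a block the changes were -0.39 in mutant (adjusted p = 0.00525) and -0.53 in WT cells (adjusted p = 0.000527).

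With this scaling the median window of the chromosome also lay below 0. The median window had an activation value of -0.26 in mutant and of -0.12 in WT cells, so relative to it the flank was at -0.13 in mutant cells, where 105 of 235 windows had a more negative value, and at -0.40 in WT cells, where 85 had one. TMM factors moved the mutant median by 0.27, and over all scalings tried the flank stood at -0.13 to -0.10 relative to the median in mutant and at -0.40 to -0.39 in WT cells. The interaction of genotype and activation was 0.13 ± 0.14 on the log2 scale (adjusted p = 0.929, 95% interval -0.14 to 0.40), with 0% of windows called. The mutant call was lost with TMM factors (-0.11, adjusted p = 0.730) and in 5 other settings, with values between -0.38 and -0.21. The WT call was kept in 17 of 17 alternatives.

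**Figure D1:**
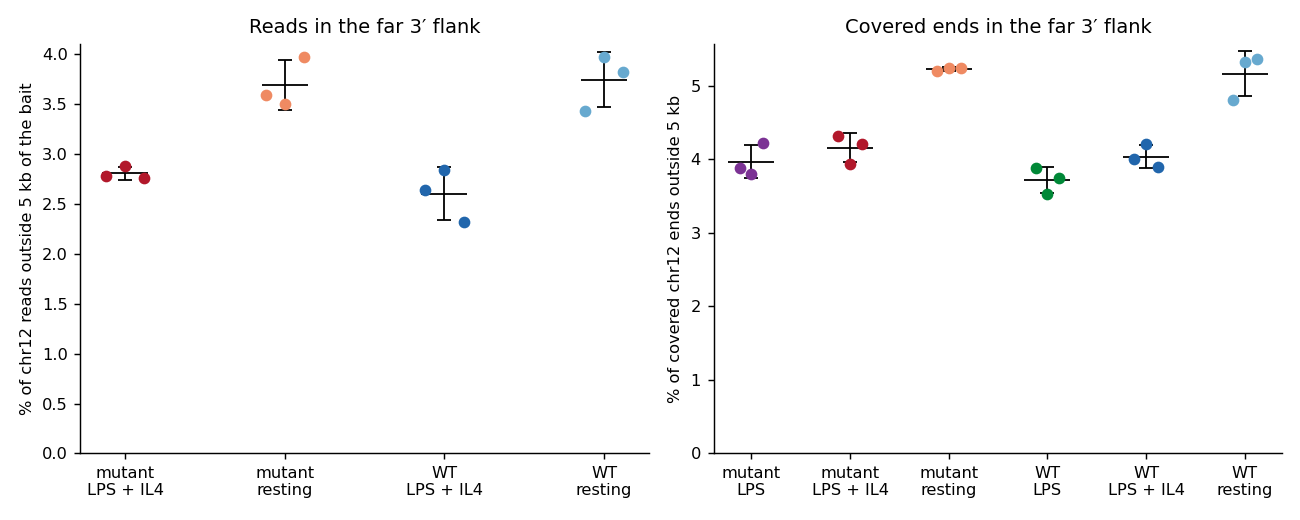
Share of chromosome 12 reads, and of covered chromosome 12 ends, that lay in the far 3′ flank, with 1 point per library and the mean and SD of each group. By reads, the 3 activated libraries of each genotype (2.32% to 2.88%) sat below the 3 resting ones (3.44% to 3.97%), while mutant and WT libraries of 1 condition overlapped.

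**Figure D2:**
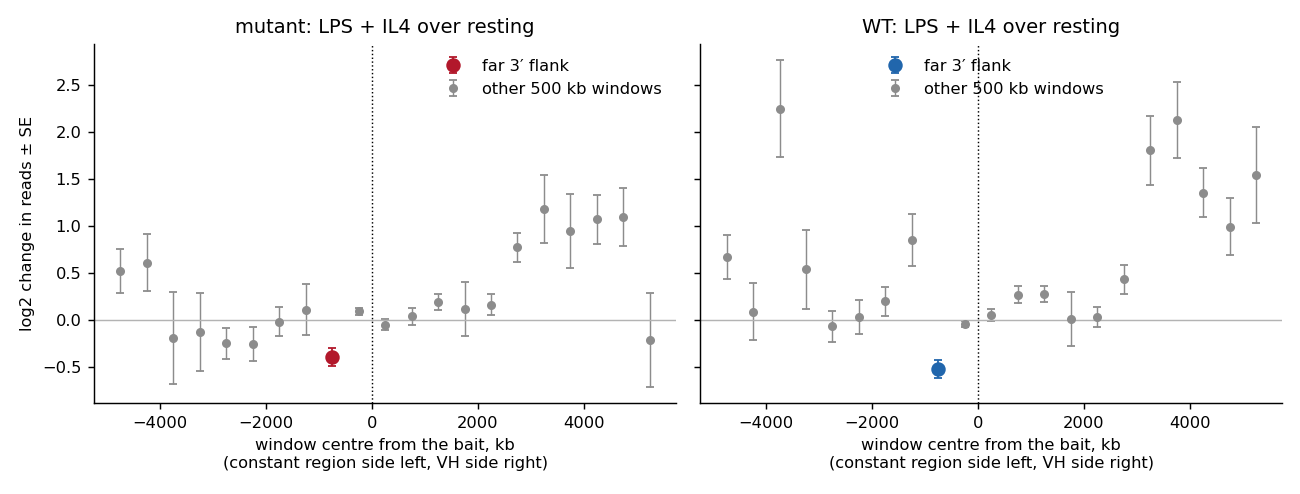
Activation log2 change with SE of 500 kb windows, for those nearest the bait, against the distance of the window centre from the bait in kb, in mutant and WT cells. The far 3′ flank lies at -0.39 in mutant and -0.52 in WT cells, against medians over all 235 windows of chromosome 12 of -0.26 and -0.12.

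After adjustment, no test separated mutant from WT cells of 1 condition in the flank total. After LPS and IL4 the mutant to WT log2 difference was 0.11 ± 0.10 (edgeR, adjusted p = 0.985, 95% interval -0.08 to 0.30), where 0.426% of all 500 kb windows were called. In resting cells it was -0.02 ± 0.10 (adjusted p = 0.947, 95% interval -0.21 to 0.17), where 1.7% were called. With the 2 library sets as a block, edgeR gave 0.12 after LPS and IL4 (adjusted p = 0.990) and -0.01 in resting cells (adjusted p = 0.944). After LPS alone, limma on the share of covered ends gave 0.09 ± 0.16 (adjusted p = 0.992, 95% interval -0.22 to 0.41), where 0% were called. The intervals leave room for differences as large as their bounds.

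Counting each covered end once, in place of its reads, also allowed the LPS libraries to be included. The flank held 3.88%, 3.79% and 4.22% of the covered chromosome 12 ends in mutant LPS libraries, against 3.88%, 3.52% and 3.75% in WT LPS libraries. It held 4.32%, 3.94% and 4.21% in mutant LPS + IL4 libraries, against 4.00%, 4.20% and 3.90% in WT LPS + IL4 libraries, and 5.20%, 5.23% and 5.24% in resting mutant libraries, against 4.81%, 5.31% and 5.36% in resting WT libraries. Mutant and WT libraries overlapped under all 3 conditions. The exact permutation test over the 3 conditions gave a log2 difference of 0.05 (two-sided p = 0.118, adjusted p = 0.196), and without the deepest library, mutant LPS + IL4 replicate 2, a difference of 0.06 (unadjusted p = 0.0495). The LPS libraries were aligned by another program and are not set against the other deposit.

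Set against the region at the same distance on the variable gene side, the flank was lower in activated cells. The ratio of flank reads to reads 0.5 to 1 Mb away on the variable gene side was 0.782, 0.717 and 0.742 in mutant LPS + IL4 libraries, against 0.923, 1.02 and 1.07 in resting mutant libraries. It was 0.604, 0.666 and 0.608 in WT LPS + IL4 libraries, against 0.894, 1.22 and 1.16 in resting WT libraries. Activated and resting libraries did not overlap in either genotype, and the mean log2 difference was -0.61 (exact permutation test within genotype, two-sided p = 0.005, adjusted p = 0.0125). Per listed end, the flank had 20.3 ± 0.475 CPM in mutant LPS + IL4 and 26.6 ± 1.79 in resting mutant cells, against 25.4 and 24.8 CPM on the variable gene side. In WT cells the flank had 18.8 ± 1.90 CPM per end after LPS and IL4 and 27.0 ± 1.99 in resting cells (SD, n = 3), against 28.0 and 23.4 CPM on the variable gene side.

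The chromatin between the flank and the constant region genes also had lower levels in activated cells. In the stretch 250 to 500 kb from the bait on the same side, the level per listed end was 53.1 CPM in mutant LPS + IL4 and 73.2 CPM in resting mutant cells, and 52.1 CPM in WT LPS + IL4 and 80.7 CPM in resting WT cells. The flank-to-near ratio ranged from 0.572 to 0.687 in activated and from 0.487 to 0.660 in resting libraries, which overlapped in both genotypes. The log2 difference of the ratio with activation was 0.09 (exact permutation test, two-sided p = 0.29, adjusted p = 0.363). Farther out, 1 to 1.5 Mb from the bait, the level per listed end was 5.89 CPM in mutant LPS + IL4 and 5.47 CPM in resting mutant cells, and 5.82 CPM in WT LPS + IL4 and 3.24 CPM in resting WT cells.

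Reads within the flank were unevenly placed. Of its 50 windows of 10 kb, 42 to 50 had reads in a given counted library and 38 had reads in all 12, all of them among the 40 windows nearest the bait. The window 560 to 570 kb from the bait, inside Gpr132, had the highest mean (3230 CPM), and the next were those ending at 600 kb (Cdca4 and Gm52009, 2438 CPM), 560 kb (Gpr132, 1568 CPM) and 740 kb (the lncRNA Gm30298, 1495 CPM). The next 4 were those ending at 810 kb (Adssl1, 1360 CPM), 580 kb (Gpr132, 1217 CPM), 790 kb (Adssl1 and Siva1, 1183 CPM) and 670 kb (Pld4, 1052 CPM). These 8 windows held 42.2% of the flank reads, and the top 3 held 22.5%. The 5 lowest ended at 990 kb (31.3 CPM), 970 kb (50.6 CPM), 920 kb (Tmem179, 51.8 CPM), 950 kb (53.5 CPM) and 650 kb (Ahnak2, 58.6 CPM, with 5 listed ends). The highest mean was 103 times the lowest. These are totals of windows that differ in listed ends, with 34 in the highest and 12 in the lowest. Over the 50 windows, mean CPM rose with the number of listed ends (Spearman's rho 0.817).

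The order of the windows was much the same in each group. Over the 50 windows, Spearman's rho between group means was 0.864 to 0.913 and Pearson's r 0.726 to 0.882, as a description of profiles that share their fragment ends. Between single libraries, Pearson's r on log2(CPM + 1) had a median of 0.721 within 1 group (0.427 to 0.834 over 12 pairs). Between libraries of different groups its median was 0.670 (0.423 to 0.857 over 54 pairs). The level per listed end went down with distance from the bait (rho -0.711), where an end is listed only if at least 1 of the 18 libraries read it. The leading window, 560 to 570 kb away, had 3734, 3150 and 3024 CPM in mutant LPS + IL4 cells, 2972, 3804 and 3120 CPM in resting mutant cells, 2400.5, 2866 and 2497 CPM in WT LPS + IL4 cells and 3338, 3993 and 3863 CPM in resting WT cells. Activated and resting libraries overlapped there in mutant cells and did not in WT cells.

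**Figure D3:**
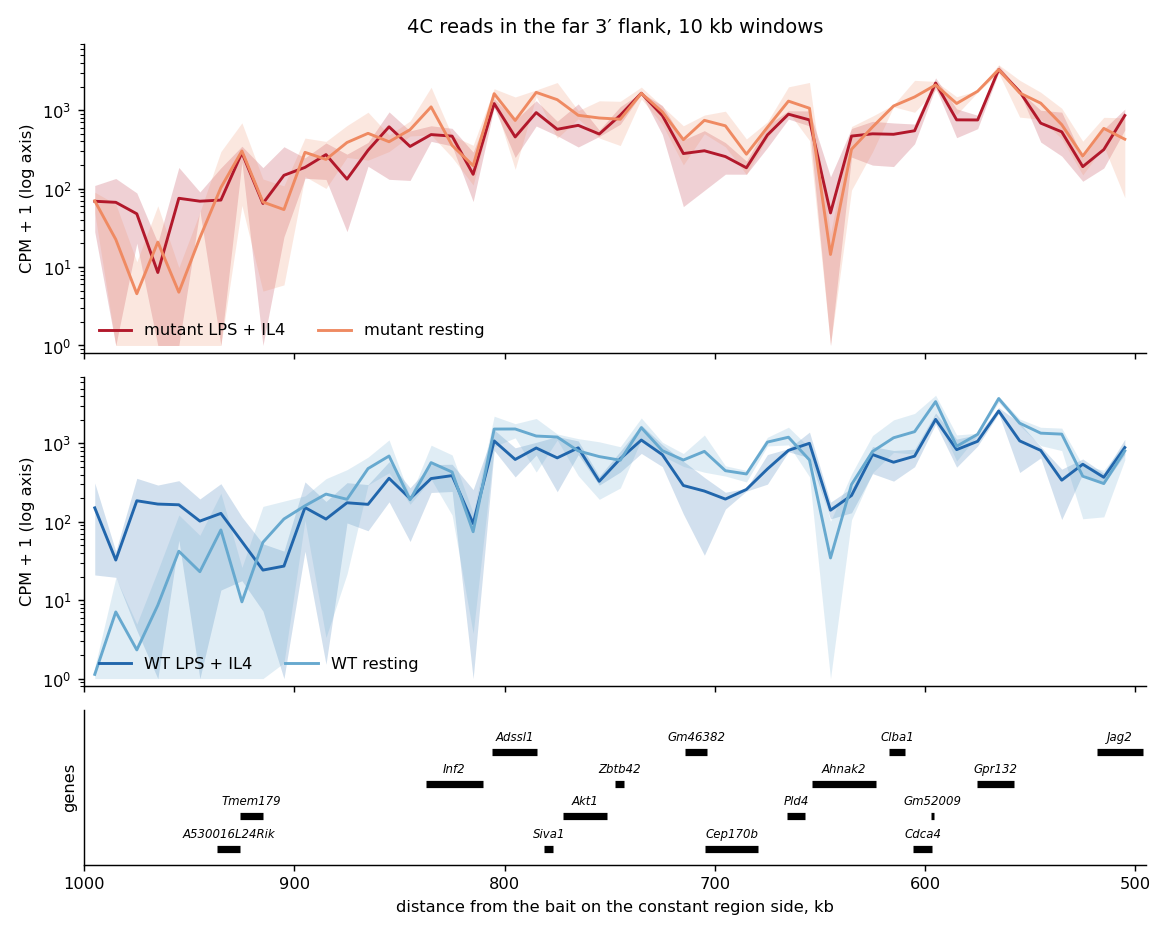
Mean CPM plus 1 (log axis) of each 10 kb window of the far 3′ flank by distance from the bait in kb, with 1 line per group, shading from the lowest to the highest library, and the protein-coding genes beneath. The peaks at 560 to 570 kb (Gpr132) and 590 to 600 kb (Cdca4 and Gm52009) stood in all 4 groups, and the farthest 100 kb held few reads.

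Cut into 100 kb segments, the 4 segments nearest the bait had lower mean levels in activated than in resting cells of both genotypes. The nearest segment, 500 to 600 kb away, which holds Gpr132, had 12228, 11728 and 10028 CPM in mutant LPS + IL4 cells and 12891, 12782 and 13868 CPM in resting mutant cells. It had 12029, 10350 and 9187 CPM in WT LPS + IL4 cells and 14508, 15775 and 15671 CPM in resting WT cells. The groups did not overlap in either genotype. In an edgeR fit over 40 segments of 100 kb spanning 1 Mb of the constant region side and 3 Mb of the variable gene side, the change was -0.22 ± 0.14 in mutant cells (adjusted p = 0.307) and -0.54 ± 0.14 in WT cells (adjusted p = 0.00455). Over these segments 15% were called in mutant and 27.5% in WT cells.

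The segment 600 to 700 kb away, with part of Cdca4 and with Clba1, Ahnak2 and Pld4, had 3721, 4921 and 5215 CPM in mutant LPS + IL4 cells and 8921, 5838 and 7526 CPM in resting mutant cells. It fell by 0.69 ± 0.19 on the log2 scale in mutant cells (adjusted p = 0.00698) and by 0.55 ± 0.19 in WT cells (adjusted p = 0.0248), again with no overlap between activated and resting libraries. The segment 700 to 800 kb away had 5684, 7858 and 5479 CPM in WT LPS + IL4 cells and 9704, 9972 and 9879 CPM in resting WT cells, and fell by 0.64 ± 0.19 (adjusted p = 0.0128). In mutant cells its log2 value was -0.50 ± 0.19 (adjusted p = 0.0838). The segment 800 to 900 kb away had a log2 value of -0.44 ± 0.24 in mutant (adjusted p = 0.224) and of -0.56 ± 0.24 in WT cells (adjusted p = 0.0778). The WT call at 500 to 600 kb was kept with each library left out, but the mutant call at 600 to 700 kb was lost without resting mutant replicate 1 (adjusted p = 0.0831). The WT call at 600 to 700 kb was lost without WT LPS + IL4 replicate 1 or 3 or resting replicate 2 or 3, and that at 700 to 800 kb without WT LPS + IL4 replicate 1 or 3 or resting replicate 2. With the replicate number as a block, the mutant segment at 700 to 800 kb (adjusted p = 0.0384) and the WT segment at 800 to 900 kb (adjusted p = 0.0374) were also called. Leaving out WT LPS + IL4 replicate 2 ended none of the 3 WT segment calls. With 0%, 5% and 0% of all segments called, 0 flank segments differed between mutant and WT cells after LPS and IL4, in resting cells or in the interaction (edgeR, with 0 in each at an unadjusted p under 0.05).

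In the farthest 100 kb the activated WT libraries lay above the resting ones, though the test on reads did not separate them. This segment, which holds Tmem179, A530016L24Rik and the lncRNA B020018J22Rik, had 589, 1258 and 847 CPM in mutant LPS + IL4 cells and 138, 1052 and 800 CPM in resting mutant cells. It had 1118, 866 and 1102 CPM in WT LPS + IL4 cells and 448, 145 and 385 CPM in resting WT cells. Mutant libraries overlapped and WT libraries did not. The log2 change was 0.44 ± 0.78 in mutant cells (adjusted p = 0.727) and 1.66 ± 0.80 in WT cells (edgeR, adjusted p = 0.130). Mutant libraries covered 17, 28 and 27 ends of this segment after LPS and IL4, against 9, 13 and 13 in resting cells, and WT libraries 26, 14 and 21, against 9, 3 and 7. These groups did not overlap in either genotype, but activated libraries also covered more of the whole chromosome, a mean of 20.7% of the listed ends in mutant LPS + IL4 and 13.4% in resting mutant libraries, and 19.5% in WT LPS + IL4 and 14.8% in resting WT libraries. Scaled to each library's covered ends, the edgeR change was 0.41 in mutant (adjusted p = 0.346) and 1.27 in WT cells (adjusted p = 0.0115), where 27.5% and 22.5% of all segments were called.

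**Figure D4:**
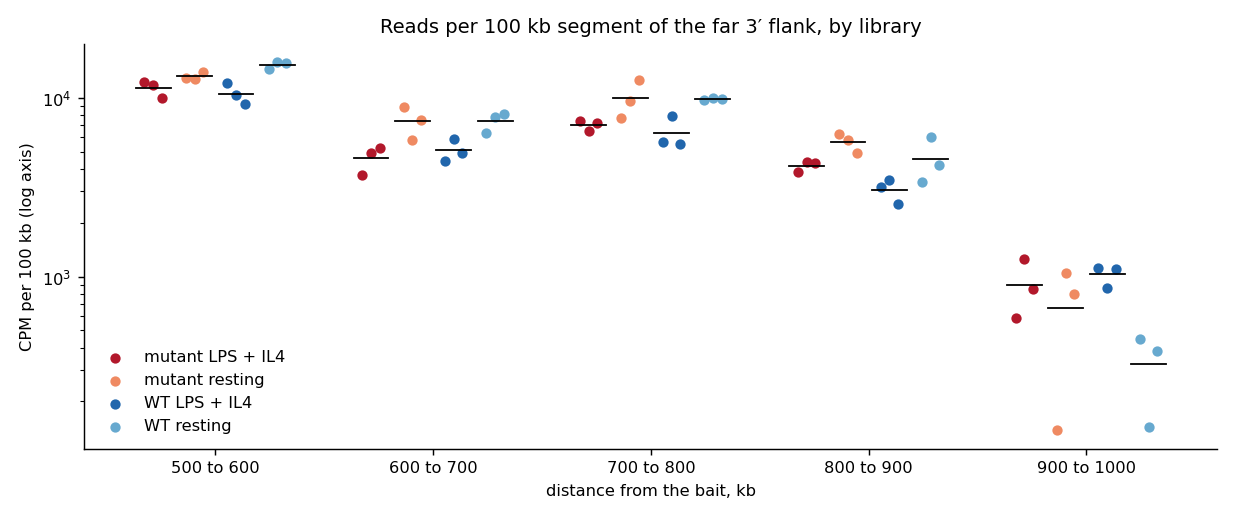
CPM (log axis) of the 5 segments of 100 kb of the far 3′ flank by distance from the bait in kb, with 1 point per library and a line at the mean of each group. Activated WT libraries lie below resting WT libraries at 500 to 600 kb (9187 to 12029 against 14508 to 15775 CPM) and above them at 900 to 1000 kb (866 to 1118 against 145 to 448 CPM).

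All 50 windows of 10 kb passed the filter of a mean of 10 reads, and few passed a test. With activation, 0 windows were called in mutant cells, where 3.01% of the 399 windows tested were called, 4 flank windows passed an unadjusted p of 0.05, and DESeq2 called 1 lower, the window of Gpr132 that ends 580 kb from the bait. In WT cells 1 was called, where 4.51% of all windows were called, 7 passed an unadjusted p of 0.05, and DESeq2 called another, lower, ending 540 kb from the bait. The median flank window had a log2 value of -0.42 in mutant cells (34 of 50 below 0) and of -0.48 in WT cells (33 below 0). Over all 399 windows tested the medians were 0.05 and 0.08. Those windows spanned 1 Mb of the constant region side and 3 Mb of the variable gene side, not the whole chromosome. The 500 kb windows of the whole chromosome had medians of -0.26 in mutant and -0.12 in WT cells. Between mutant and WT, edgeR called 0 flank windows after LPS and IL4, in resting cells and in the interaction, each with 0% of all windows called. At an unadjusted p under 0.05 there were 0, 3 and 2 flank windows, and DESeq2 called 0, 2 and 1, all in the farthest 100 kb. In LPS cells, 22 of 25 windows of 20 kb had enough covered ends for limma, and 0 were called (0% of all 195, and 0 flank windows with an unadjusted p under 0.05), with a median log2 difference of 0.06 and a range of -0.61 to 0.49.

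The 1 window called was the farthest, chr12:112426025-112436024, over the lncRNA B020018J22Rik. It had 56, 223 and 601 reads in WT LPS + IL4 libraries and 1, 0 and 0 reads in resting WT libraries. Mutant libraries had 43, 1108 and 91 reads after LPS and IL4 and 49, 108 and 78 reads when resting, so both states overlapped there in CPM. The WT call had an adjusted p of 0.0384 in edgeR. The ratio of pooled WT CPM was 770, with an exact 95% interval of 138 to 30448. That interval treats the pooled reads as independent draws and leaves out the spread between libraries. Reads at 1 end are not independent molecules, so it does not cover the counting error of molecules either. At most 4 of its 19 listed ends were covered in a library, and with reads capped per end the adjusted p was 0.0501. The call was lost in 5 of 6 fits that left out 1 WT library and stayed without WT LPS + IL4 replicate 1 (adjusted p = 0.0439).

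Each fragment end was given to the nearest RefSeq gene within 10 kb, with ties going to protein-coding genes, and 180 ends of the flank fell to no gene. The 16 protein-coding genes were all tested, and edgeR called 0 of them in each of the 4 comparisons. In activation of mutant cells 0.519% of the 1157 gene units of chromosome 12 were called and 3 flank genes had an unadjusted p under 0.05. In activation of WT cells 1.21% were called, 6 flank genes passed an unadjusted p of 0.05, and DESeq2 called 1, Cep170b. Between genotypes 0.0864% were called after LPS and IL4 and 0% in resting cells, with 0 and 1 flank genes at an unadjusted p under 0.05. With activation 14 of 16 genes had a negative value in mutant cells (median -0.48) and 12 of 16 in WT cells (median -0.57), against 52.8% and 47.5% of all gene units, whose medians were -0.14 and 0. Activated and resting libraries did not overlap for 3 of the 16 genes in mutant cells, against 13% of all gene units, and for 7 of 16 in WT cells, against 15.9%. Mutant and WT libraries did not overlap for 2 of 16 after LPS and IL4, against 7.69%, and for 0 of 16 in resting cells, against 8.3%. Between mutant and WT the medians were 0.11 after LPS and IL4 (5 of 16 below 0) and 0.02 in resting cells (8 of 16 below 0).

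Gpr132 encodes a G protein-coupled receptor of lymphocytes and macrophages, and held more flank reads than any other gene. Its unit (gene body chr12:112850873-112868416) took 15.2% to 20.7% of the flank reads in a library with 6.78% of the flank ends. It had 5749, 5424 and 5479 CPM in mutant LPS + IL4 cells, 5453, 7039 and 7055 CPM in resting mutant cells, 5073, 4433 and 4328 CPM in WT LPS + IL4 cells and 6208, 6642 and 6748 CPM in resting WT cells. Activated and resting libraries overlapped in mutant cells and not in WT cells, and mutant and WT libraries did not overlap after LPS and IL4. None of these differences passed the test, with log2 values of -0.23 ± 0.18 for activation in mutant cells (adjusted p = 0.641), -0.50 ± 0.18 in WT cells (adjusted p = 0.272) and 0.27 between mutant and WT after LPS and IL4 (adjusted p = 0.850). Pld4, an endolysosomal exonuclease of immune cells, had 1057, 1424 and 1122 CPM in mutant LPS + IL4 cells, 2240, 1297 and 1513 CPM in resting mutant cells, 1022, 1125 and 979 CPM in WT LPS + IL4 cells and 1756, 1173 and 1188 CPM in resting WT cells. Its WT groups did not overlap and its mutant groups did.

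Of the genes of cell survival, Akt1, a kinase that promotes survival and growth, had 1050, 1177 and 2118 CPM in mutant LPS + IL4 cells, 1583, 2032 and 2684 CPM in resting mutant cells, 1161, 1452 and 1426 CPM in WT LPS + IL4 cells and 981, 2366 and 1730 CPM in resting WT cells. Siva1, which encodes a pro-apoptotic protein that binds the receptor CD27, had 182, 176 and 211 CPM in mutant LPS + IL4 cells, 42.3, 699 and 1044 CPM in resting mutant cells, 122, 809 and 387 CPM in WT LPS + IL4 cells and 670, 602 and 958 CPM in resting WT cells. Activated and resting levels overlapped for both genes in both genotypes. Jag2, a ligand of Notch receptors, lies at the near edge of the flank, which holds 81 of the 91 ends of its unit. It had 1913, 2391 and 1599 CPM in mutant LPS + IL4 cells, 3115, 930 and 2080 CPM in resting mutant cells, 2918, 2248 and 2158 CPM in WT LPS + IL4 cells and 1979, 1890 and 1966 CPM in resting WT cells. It was the 1 gene whose WT groups did not overlap with the activated one higher, and the difference of 0.33 ± 0.33 had an adjusted p of 0.720.

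Among cytoskeletal genes, Cep170b, whose product binds microtubules, had 1022, 785 and 703 CPM in mutant LPS + IL4 cells and 1637, 1275 and 960 CPM in resting mutant cells. In WT cells it had 626, 717 and 545 CPM after LPS and IL4 and 1600, 1306 and 1274 CPM when resting. The groups overlapped in mutant and not in WT cells, where the change was -1.15 ± 0.42 in edgeR (adjusted p = 0.310) and -1.01 in DESeq2 (adjusted p = 0.0317). Inf2, a formin that remodels actin, had 1920, 2009 and 1749 CPM in mutant LPS + IL4 cells, 2774, 3226 and 2124 CPM in resting mutant cells, 1477, 1222 and 934 CPM in WT LPS + IL4 cells and 792, 2300 and 1456 CPM in resting WT cells. Its activated mutant libraries lay below the resting mutant ones and above the activated WT ones, with changes of -0.52 ± 0.35 (adjusted p = 0.575) and 0.64 (adjusted p = 0.735).

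Adssl1, an adenylosuccinate synthase of AMP synthesis known from muscle, had 1678, 2185 and 1331 CPM in mutant LPS + IL4 cells, 2121, 2346 and 3748 CPM in resting mutant cells, 2335, 2154 and 1713 CPM in WT LPS + IL4 cells and 2986, 4224 and 3727 CPM in resting WT cells. It had the smallest adjusted p among the flank genes with activation in mutant cells (0.416, -0.66 ± 0.29), and in WT cells, where the groups did not overlap, the change was -0.82 ± 0.29 (adjusted p = 0.272). Cdca4, a nuclear protein of the E2F pathway, had 1973, 1802 and 1848 CPM in mutant LPS + IL4 cells, 3592, 2294 and 1973 CPM in resting mutant cells, 2629, 1578 and 1597 CPM in WT LPS + IL4 cells and 1721, 3249 and 4068 CPM in resting WT cells. Cdca4 and Gm52009 overlap head to head, so the split of the ends between them follows the nearest-gene rule. Zbtb42, a BTB zinc finger protein, Ahnak2, a large scaffold protein, and Clba1, a clathrin-binding protein, had changes with activation of 0.20, -0.12 and -1.05 in mutant cells and 0.15, 0.38 and -1.11 in WT cells, none of which passed the test. Activated mutant libraries were also below resting ones without overlap for Clba1 and Gm46382, and activated WT libraries for Gm46382 and Gm52009, with log2 values of -1.36 and -0.99 in WT cells. Of the distant genes, Tmem179 had 0.44 in mutant and -1.75 in WT cells and A530016L24Rik -0.35 in mutant and 0.87 in WT cells, each with an SE over 1.

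Per kb of each gene's territory, the mean level over the 12 libraries was highest for Cdca4 (225 CPM per kb), Gpr132 (199) and Gm52009 (155), followed by Adssl1 (106), Clba1 (98.5), Pld4 (90.7), Zbtb42 (78.3), Siva1 (73.4), Akt1 (70.4) and Jag2 (61.2). Gm46382 (52.2), Inf2 (47.0), Ahnak2 (41.2) and Cep170b (38.0) came next. A530016L24Rik (11.3 CPM per kb) and Tmem179 (7.83), both in the farthest 100 kb, were lowest. Gpr132 averaged 191 ± 6.0 CPM per kb in mutant LPS + IL4, 224 ± 31.6 in resting mutant, 158 ± 13.8 in WT LPS + IL4 and 224 ± 9.8 in resting WT cells (SD, n = 3).

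**Figure D5:**
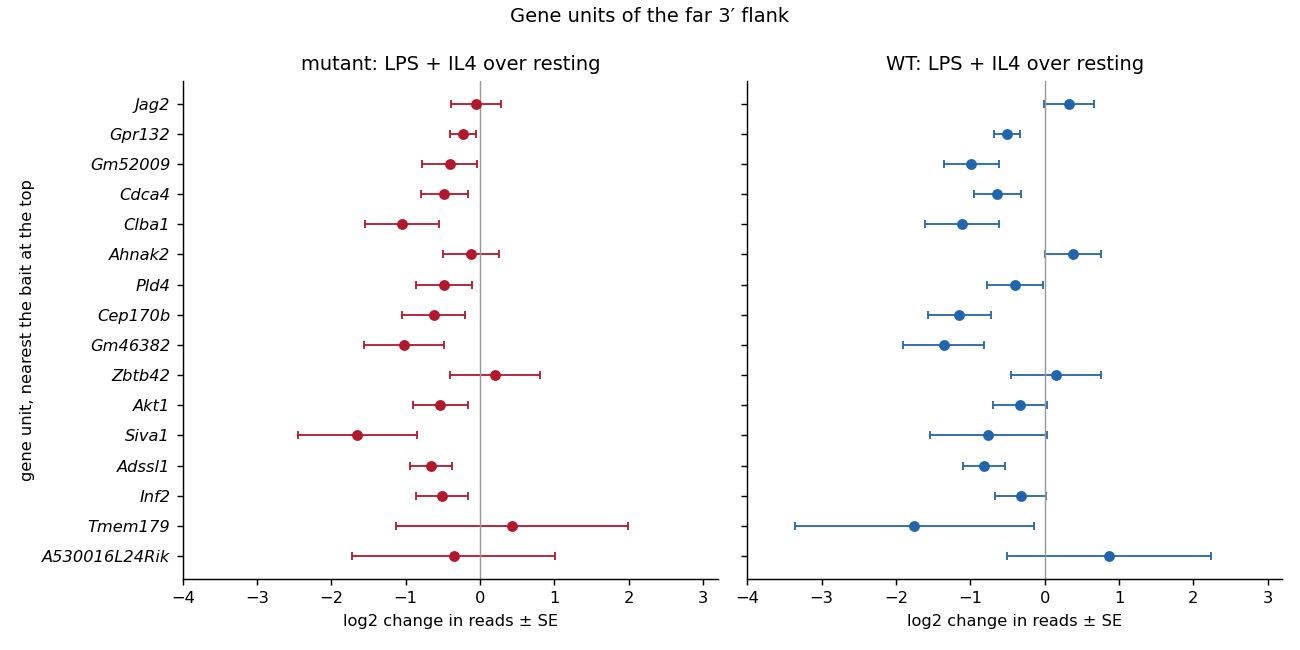
Activation log2 change with SE of the 16 protein-coding genes of the far 3′ flank in mutant and WT cells, ordered by distance from the bait. Values were below 0 for 14 genes in mutant and 12 in WT cells, and none passed the edgeR test.

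At the level of single ends the flank was read sparsely. Of its 1386 ends, 29 had reads in all 12 counted libraries and 10 were covered in all 18, while 326 were covered in 1 library of 18. Of the 29, 21 lay in the 200 kb nearest the bait and 0 in the farthest 100 kb. Within a library the top end took 2.31% to 4.14% of the flank reads and the top 10 ends 17.1% to 23.0%. The leading end, beside a listed Gpr132 start inside the gene body, had 849, 705 and 534 CPM in mutant LPS + IL4 cells, 539, 543 and 348 CPM in resting mutant cells, 824, 289 and 509 CPM in WT LPS + IL4 cells and 561, 761 and 766 CPM in resting WT cells. Its activated and resting levels overlapped in both genotypes. The next were an end inside Gpr132 (chr12:112866087-112866110, mean 586 CPM), one inside Cdca4 (chr12:112827221-112827244, 554 CPM) and a further pair inside Gpr132 (chr12:112861280-112861303, 506 CPM, and chr12:112862341-112862364, 463 CPM).

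On average, ends near gene starts were read more than others. The 132 ends within 2 kb of a protein-coding start had 2.25 to 3.78 times the mean CPM per listed end of the 1254 ends farther away, with a median of 2.69 and a higher level in 12 of 12 libraries. They were also more often covered, in 18 of 18 libraries, by a factor of 1.28 to 2.24. Within the nearest 400 kb, where most of the genes lie, the CPM ratio was 2.11 to 3.60. These means rest in part on a few ends, which all libraries share. Ends within 2 kb of the listed starts of Gpr132 and Gm52009 included those with means of 602, 554, 506 and 463 CPM. The ratio without them was not tested. The 662 ends inside protein-coding genes had 1.20 to 1.80 times the level per end of the 724 ends outside them, higher in 12 of 12 libraries, and were more often covered in 17 of 18. Within the nearest 400 kb that ratio was 1.11 to 1.73, and ends inside genes were more often covered in 14 of 18 libraries. Mappability, GC content and fragment length of these ends were not compared, and their part in these ratios was not tested.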

How the data were processed

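The authors deposited 1 file per library with the number of reads in each 24-base interval at a restriction fragment end, and per the file headers these are raw counts in bedGraph form, in which ends without a read are not listed. Per the submitters' processing notes, reads were aligned to mm10 with Bowtie, and with Bowtie2 for the LPS libraries; versions, read filters and the treatment of multiply mapping reads are not given in the sources used here. The deposited LPS files hold only the coordinates of covered ends, with no value column, so covered ends were counted in place of reads. Counts were summed over the 500 kb windows and the gene units of all chromosome 12. Windows of 10, 20 and 100 kb covered only 1 Mb of the constant region side and 3 Mb of the variable gene side. CPM used the chromosome 12 reads farther than 5 kb from the bait as the library size. Units averaging 10 or more reads were tested with edgeR 4.0.16 (quasi-likelihood, group means, no TMM factors, two-sided) in R 4.3.3, and LPS windows with a mean of at least 3 covered ends with limma 3.58.1 on log2((covered ends + 1) / covered ends of the chromosome). Adjusted p-values are Benjamini-Hochberg over all units of 1 comparison, with a threshold of 0.05. Single values were compared by exact permutation within genotype or condition in Python 3.11.15. Values are levels in CPM or log2 differences between groups, and n = 3 libraries per group.

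The members follow from position, but the region and the lists of genes and windows were chosen with earlier results of these data known. Named with values were the protein-coding RefSeq genes of the flank, each 10 kb window called, the 8 highest and 5 lowest windows and the 5 most read ends. Alternatives were DESeq2 1.42.0, TMM factors, reads capped per end at the 99th percentile, covered ends counted once, other window sizes, filters, library sizes and pseudocounts, a replicate block, a block for the 2 library sets, and each library left out. The 100 kb segments, and windows of 50 and 100 kb, were added after seeing the data. The labels do not say that a replicate number marks 1 animal, and same-numbered activated and resting libraries deviated together by r = 0.27, 0.14 and 0.099 in mutant and -0.074, 0.029 and -0.067 in WT cells, so the numbers were not taken as pairs, although a shared origin was not excluded. The 2 library sets kept both conditions of each genotype and number together at 88 ends, against 4 for the next best split. Only splits of that kind were searched. The main fits and the exact tests take no account of a shared origin by number. Fragment length, mappability and trans contacts were not analysed here.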

Additional observations from a re-analysis of the deposited data

How the results depend on the processing

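The flank total with activation in WT cells stayed called in 17 of 17 alternatives, from -0.59 to -0.45 with 1 library left out. In mutant cells it was not called with TMM factors (-0.11), DESeq2 (-0.21), reads capped per end (-0.21) or a library size taken beyond 500 kb (-0.31), and ranged from -0.43 to -0.34 with 1 library left out, uncalled without resting replicate 3 or LPS + IL4 replicate 3. With 1 library left out, the genotype difference in the total ranged from 0.05 to 0.12 after LPS, from 0.03 to 0.18 after LPS and IL4 and from -0.078 to 0.024 in resting cells, and the interaction from 0.05 to 0.20. The resting difference was 0.018 with covered ends counted once and also above 0 without mutant (0.016) or WT (0.024) resting replicate 2, and the LPS difference was -0.23 on the log odds of covered ends, which counts uncovered ends and is not scaled to the covered total; none of these was called, and the cause was not tested. The exact tests ranged from -0.49 to -0.42 for activation, 0.01 to 0.08 for genotype, -0.68 to -0.57 against the variable gene side, 0.04 to 0.13 against the near stretch (-0.0297 with covered ends counted once) and 0.035 to 0.064 for covered ends by genotype. With activation, the called windows were 1 of 50 in mutant cells by DESeq2, 1 with windows of 50 kb and 1 with windows of 100 kb. In WT cells they were 0 with capped reads, the replicate block, 5 kb or 20 kb windows, 3 with 100 kb windows, and 0 to 1 with 1 library left out. DESeq2 called 2 windows between genotypes in resting cells, 1 in the interaction and 1 gene with activation in WT cells. The replicate block, whose numbers did not meet the criterion for pairing, gave -0.39 in mutant and -0.53 in WT cells for activation. Over 64 gene comparisons and 704 alternatives, 672 kept their side of the threshold with little movement, 31 moved by more than their error and 1 became called; 58 values changed sign, none with a log2 value over 0.87. Windows of 50 and 100 kb were chosen after seeing the data. Values in the farthest 100 kb rest on 3 to 28 covered ends per library.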
